A study of Mus musculus with 35 samples.

Results

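The interferon-inducible GTPases described here are 8 genes, *Irgm1*, *Irgm2*, *Igtp*, *Tgtp*, *Iigp1*, *Ifi47*, *Gbp2* and *Gbp3*, measured in the striatum of 35 female mice. They are 8 of 22099 genes listed, and all 8 were among the 17639 genes tested. They were chosen by name, with earlier results of these libraries known in which they were higher in mice given *Htt* ASO. That difference is therefore given below as a description, and calls on it are no independent evidence. RNA was sequenced from 1 hemistriatum per mouse, the right in all but 1 mouse. Mice of the C57BL6/J strain were either Htt+/+ or HttQ111/+, which carries 1 mutant allele with an expanded CAG tract at the endogenous locus. From 2 to 10 months of age they received weekly injections of *Htt* ASO at 50 mg per kg body mass, control ASO at the same dose, or saline at 4 µL per g. *Htt* ASO is an antisense oligonucleotide against mouse *Huntingtin*, and control ASO shares its chemistry without that target. The study describes both as confined to the periphery, and the mice were perfused with saline before dissection at 299 to 304 days of age. Each of the 6 groups held 6 mice, except 5 Htt+/+ mice on control ASO, and each library came from 1 mouse. The label ASO1 was read as *Htt* ASO, the treatment left once control ASO and saline had been assigned.

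Interferon-inducible GTPases are cytosolic and membrane-bound enzymes that cells make after interferon reaches its receptors, and many are induced by both type I interferons and interferon gamma. Immunity-related GTPases (IRG proteins) comprise effectors, which load onto the vacuoles of intracellular parasites and bacteria, and regulators, which keep the effectors inactive on the cell's own membranes. Guanylate-binding proteins (GBPs) are larger members of the same dynamin-related group and also gather on pathogen vacuoles. Receptor signalling reaches these genes through transcription factors that bind the gamma-activated site and the interferon-stimulated response element. In whole tissue, fewer cells of a type and less RNA per cell cannot be told apart.

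Libraries held 32200158 to 38641924 counts. A choroid plexus marker list summed to 1573 CPM (counts relative to scaled library size) in Htt+/+ control ASO replicate 1 and to at most 146.4 CPM in any other mouse. Htt+/+ control ASO replicate 2 had the highest sums for endothelial markers (260.7 CPM) and blood markers (241 CPM). Spiny projection neuron markers, which define the tissue, summed to 3765 to 6663 CPM over the 35 mice. Transcripts of *Htt* itself, listed under its older symbol *Hdh*, were 66.6 to 104.3 CPM in Htt+/+ and 60.9 to 83.6 CPM in HttQ111/+ mice on *Htt* ASO. Over both genotypes *Htt* differed by -0.08 on the log2 scale (SE 0.068) between *Htt* ASO and control ASO, with an adjusted p of 0.967 in limma after voom.

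Promoter sequences show a shared arrangement in some of the family, and are given for 6 of the 8 genes with the copy of *Tgtp1* that the count table does not list separately. They are RefSeq sequences of build GRCm38.p6, printed 5′ to 3′ in the direction of transcription, and capitals mark the motifs searched. The first motif was GAAANNGAAA, the core of the interferon-stimulated response element, and the second was TTCNNNGAA, the gamma-activated site. Both were searched on both strands in the 250 bases before and 50 bases after each start.
*Tgtp1*, chr11:48992289-48992348, minus strand: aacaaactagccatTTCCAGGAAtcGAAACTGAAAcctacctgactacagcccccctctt
*Tgtp2*, chr11:49064248-49064307, minus strand: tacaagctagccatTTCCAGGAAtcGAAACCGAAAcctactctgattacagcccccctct
*Igtp*, chr11:58199497-58199556, plus strand: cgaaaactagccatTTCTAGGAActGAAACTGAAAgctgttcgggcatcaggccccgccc
*Irgm2*, chr11:58214888-58214947, plus strand: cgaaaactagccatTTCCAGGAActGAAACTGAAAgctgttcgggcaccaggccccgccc
*Irgm1*, chr11:48871410-48871475, minus strand: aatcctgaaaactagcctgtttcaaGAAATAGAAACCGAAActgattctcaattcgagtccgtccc
*Gbp2*, chr3:142620579-142620638, plus strand: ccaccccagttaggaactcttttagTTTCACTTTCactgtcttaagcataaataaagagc
*Gbp3*, chr3:142559974-142560039, plus strand: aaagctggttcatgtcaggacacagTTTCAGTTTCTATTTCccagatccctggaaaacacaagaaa

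Of the 7 members in the promoter table, 6 held the response element core, against 3.44% of all 32851 promoters, and 3 held the gamma-activated site, against 8.3%. *Iigp1* is not shown. In *Igtp*, *Irgm2* and *Tgtp1* both motifs stood together, with the gamma-activated site ending 2 bases before the response element core. That arrangement, looked for after these sequences had been seen, was found in 5 promoters of the table (0.0152%), those of *Igtp*, *Irgm2*, *Tgtp1*, *Tgtp2* and *Gm12185*, which RefSeq also names *Irgb2b1*. Compared position by position without gaps, the printed windows of *Igtp* and *Irgm2* differed at 2 of 60 bases, and those of *Tgtp1* and *Tgtp2* at 16 of 60. An extra base after the core in *Tgtp2* shifts the bases that follow, so the 16 overstates how far the *Tgtp1* and *Tgtp2* windows differ. The core began 77 bases before the start in *Tgtp1*, 34 in *Igtp* and 64 in *Irgm2*. *Irgm1* and *Gbp3* each held 2 overlapping cores, and in *Gbp2* and *Gbp3* the core lay on the other strand, so that it reads as TTTC repeats. The window of *Ifi47* and a second promoter listed for *Gbp3* held neither set of letters.

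Levels are compared between genes only per kilobase of the longest transcript in the GENCODE annotation. In Htt+/+ mice on saline *Irgm1* was the highest, at 2.82 ± 0.474 CPM per kilobase (SD, n = 6). *Gbp3* followed at 2.26 ± 0.419, *Gbp2* at 1.97 ± 0.125, *Irgm2* at 1.64 ± 0.161 and *Igtp* at 1.59 ± 0.239 CPM per kilobase. Below them came *Tgtp* at 1.08 ± 0.171, *Iigp1* at 0.528 ± 0.0808 and *Ifi47* at 0.513 ± 0.0593 CPM per kilobase. The neighbours *Irgm2* and *Igtp*, and *Iigp1* and *Ifi47*, were closer than either SD, and *Gbp3* and *Gbp2* were closer than the SD of *Gbp3* but not that of *Gbp2*. In Htt+/+ mice on *Htt* ASO *Tgtp* stood at 2.67 ± 0.485 CPM per kilobase, level with *Igtp* at 2.63 ± 0.488 and *Irgm2* at 2.64 ± 0.300. The *Tgtp* row may hold reads of *Tgtp2*, a near-identical copy, and its level is uncertain to that extent.

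The regulators *Irgm1*, *Irgm2* and *Igtp* were described first across treatments, as CPM over both genotypes. *Irgm1* encodes a regulator that keeps effector GTPases inactive on host membranes, and the count table lists it as *Irgm*. It ranged from 4.77 to 8.02 CPM in 12 saline mice (median 6.46), from 5.66 to 7.12 in 11 control ASO mice (median 6.26) and from 7.37 to 10.8 in 12 *Htt* ASO mice (median 8.46). All 12 *Htt* ASO mice exceeded all control ASO mice, and 9 of 12 were above every saline mouse. The log2 difference was 0.47 (SE 0.072) from control ASO and 0.48 (SE 0.070) from saline. *Irgm2*, a second regulator listed as *Iigp2*, ranged between 4.44 and 6.41 CPM in saline mice (median 5.44), 4.60 and 7.58 in control ASO mice (median 5.83), and 7.76 and 10.9 in *Htt* ASO mice (median 8.93). The *Htt* ASO mice overlapped neither other treatment. Its log2 difference was 0.64 (SE 0.066) from control ASO and 0.75 (SE 0.065) from saline. *Igtp*, also known as *Irgm3*, is the third regulator. It ranged between 2.43 and 3.99 CPM in saline mice (median 3.25), 2.87 and 4.44 in control ASO mice (median 3.60), and 4.01 and 6.71 in *Htt* ASO mice (median 5.14). All 12 *Htt* ASO mice were above every saline mouse, and 10 of 12 were above every control ASO mouse. The log2 difference was 0.54 (SE 0.089) from control ASO and 0.67 (SE 0.088) from saline.

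Among the effectors, *Tgtp* (Irgb6) had the largest difference of the 8 genes. This GTPase was first described in T cells and is among the IRG proteins that reach parasite vacuoles early. It ranged between 2.16 and 3.72 CPM in saline mice (median 2.68), 2.63 and 4.81 in control ASO mice (median 2.97), and 5.20 and 9.67 in *Htt* ASO mice (median 6.32). No *Htt* ASO mouse overlapped any other mouse. The log2 difference was 1.11 (SE 0.091) from control ASO, a 2.16-fold higher level, and 1.28 (SE 0.091) from saline. *Iigp1* (Irga6) is an effector that loads onto the vacuole of *Toxoplasma*. It ranged between 0.978 and 1.97 CPM in saline mice (median 1.50), 0.971 and 2.49 in control ASO mice (median 1.73), and 1.96 and 5.97 in *Htt* ASO mice (median 2.52). Relative to its mean it spread most widely of the members within *Htt* ASO, where 6 of 12 mice were above every control ASO mouse and 11 of 12 above every saline mouse. In Htt+/+ mice on *Htt* ASO its level was 3.62 ± 1.78 CPM (SD, n = 6). Its log2 difference was 0.81 (SE 0.19) from control ASO and 0.98 (SE 0.19) from saline. *Ifi47* (Irgd), an IRG protein of the effector type, ranged between 0.367 and 1.11 CPM in saline mice (median 0.860), 0.558 and 1.23 in control ASO mice (median 0.811), and 1.13 and 2.25 in *Htt* ASO mice (median 1.61). Counts of *Ifi47* were the lowest of the members, down to 12 in 1 HttQ111/+ saline mouse. All 12 *Htt* ASO mice were above every saline mouse, and 10 of 12 were above every control ASO mouse. The log2 difference was 0.96 (SE 0.13) from control ASO and 0.98 (SE 0.12) from saline.

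The guanylate-binding proteins differed by less than *Tgtp*. *Gbp2* encodes a GBP that carries a lipid anchor and coats pathogen vacuoles. It ranged between 3.25 and 5.90 CPM in saline mice (median 4.59), 3.70 and 6.22 in control ASO mice (median 4.63), and 5.26 and 9.58 in *Htt* ASO mice (median 6.01). It overlapped the most of the 8 genes, with 5 of 12 *Htt* ASO mice above every control ASO mouse. The log2 difference was 0.47 (SE 0.11) from control ASO and 0.52 (SE 0.10) from saline. *Gbp3* ranged between 4.49 and 7.94 CPM in saline mice (median 5.56), 4.22 and 6.90 in control ASO mice (median 5.25), and 7.28 and 13.2 in *Htt* ASO mice (median 8.25). All 12 *Htt* ASO mice exceeded all control ASO mice, and 8 of 12 were above every saline mouse. The log2 difference was 0.72 (SE 0.095) from control ASO and 0.68 (SE 0.091) from saline.

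**Figure D1:**
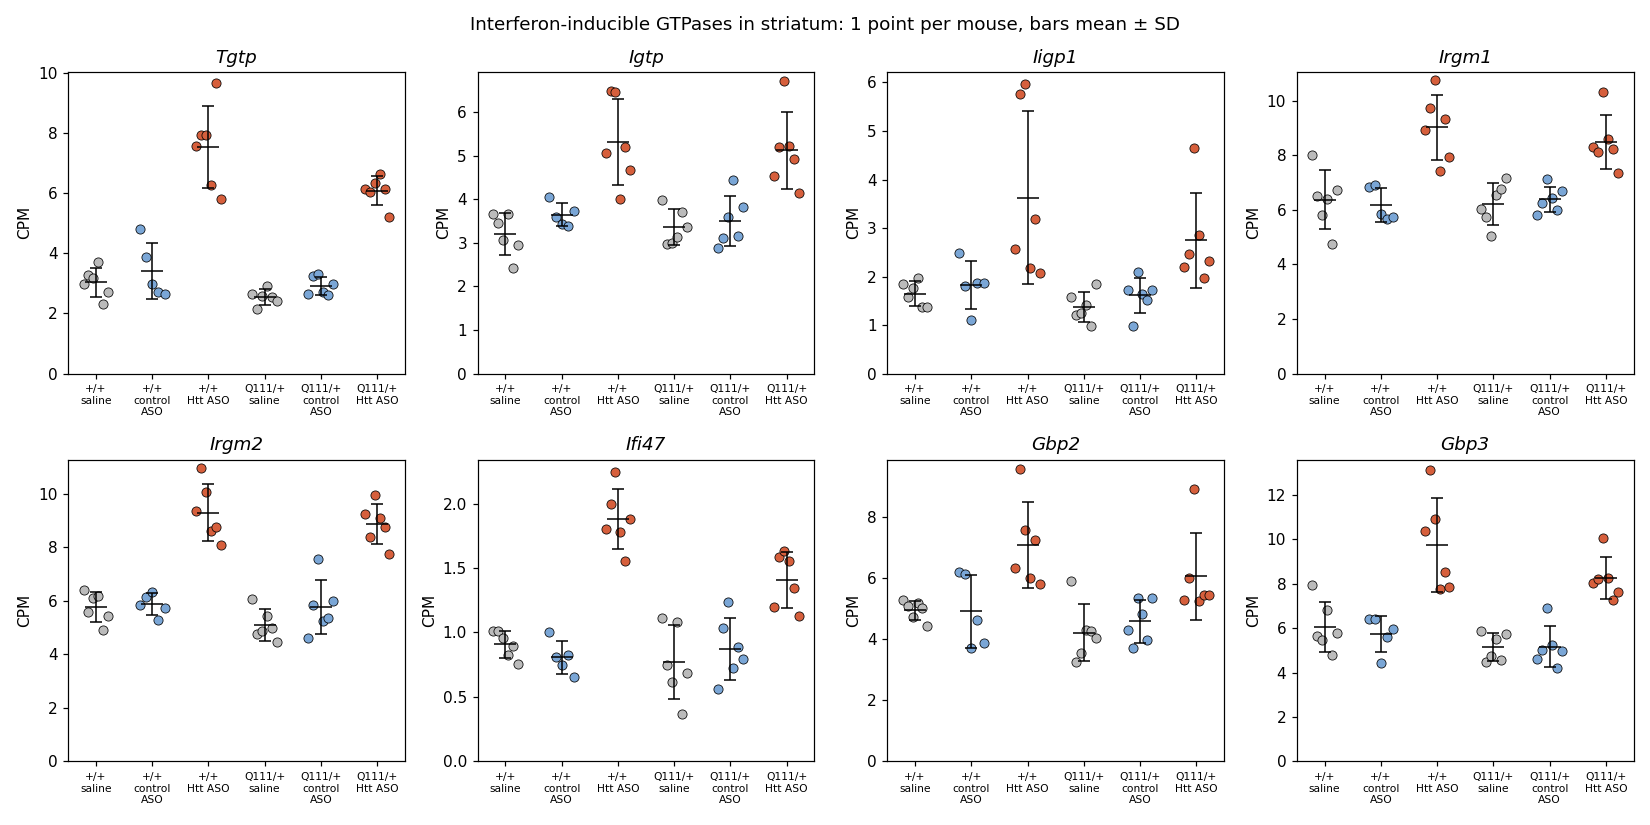
CPM of the 8 GTPase transcripts (vertical axes, linear from 0) in each of the 35 mice, by genotype and treatment (horizontal axes), with group mean ± SD as bars. Means of *Htt* ASO mice (orange) lie above those of saline (grey) and control ASO (blue) mice in every panel, without overlap for *Tgtp* and with overlap for *Iigp1* and *Gbp2*.

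Against control ASO, 8 of 8 members were higher in *Htt* ASO mice at an adjusted p under 0.05, where 0.828% of tested genes were. Against saline, 8 of 8 were higher, where 1.2% were. Without Htt+/+ control ASO replicate 3 the first count was 6, as *Iigp1* (log2 difference 0.73) and *Gbp2* (0.42) missed the threshold. These counts restate the values by which the genes were selected, and the comparisons share the *Htt* ASO mice. Ranked by log2 difference from control ASO, the members lay between 43rd (*Tgtp*) and 233rd (*Gbp2*) of 17639 genes. Without overlap between *Htt* ASO and control ASO mice were 4 of 8 members (*Tgtp*, *Irgm1*, *Irgm2* and *Gbp3*), against 0.136% of genes. Against saline mice these were *Tgtp*, *Igtp*, *Irgm2* and *Ifi47*, again 4 of 8, against 0.244% of genes. In Htt+/+ mice the 8 log2 differences from control ASO ran from 0.52 (*Igtp*) to 1.20 (*Ifi47*), and in HttQ111/+ mice from 0.39 (*Gbp2*) to 1.06 (*Tgtp*). Without the mouse with high choroid plexus markers the differences over both genotypes ran from 0.49 (*Irgm1*) to 1.18 (*Tgtp*). Sample titles carry an L number from 3 to 8, which the labels do not explain. Within each of the 6 L numbers all 8 members averaged higher in *Htt* ASO than in control ASO mice, with a mean log2 difference over members of 0.59 to 0.91 from 1 to 3 mice on each side.

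Control ASO asked whether an oligonucleotide without the *Htt* target was followed by the same levels, and these mice also enter the comparison that chose the genes. None of the 8 members was called between control ASO and saline by limma after voom, where 0% of the 17639 genes were called and 1357 had an unadjusted p under 0.05. EdgeR and DESeq2 also called 0 genes, with 1382 and 1355 genes at an unadjusted p under 0.05. Log2 differences ran from -0.04 (*Gbp3*, 95% interval -0.25 to 0.17) to 0.17 (*Tgtp*, -0.05 to 0.39, adjusted p = 0.701). The interval was widest for *Iigp1*, at -0.26 to 0.60. For *Irgm1* it was -0.15 to 0.17 around 0.01, and for *Irgm2* -0.05 to 0.25 around 0.10. Intervals for *Igtp* (-0.07 to 0.32), *Ifi47* (-0.27 to 0.31) and *Gbp2* (-0.18 to 0.28) also spanned 0. Without the mouse with high choroid plexus markers *Tgtp* differed by 0.10. Within L numbers the mean over members lay between 0.00 and 0.08 in all 5 that held both treatments.

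**Figure D2:**
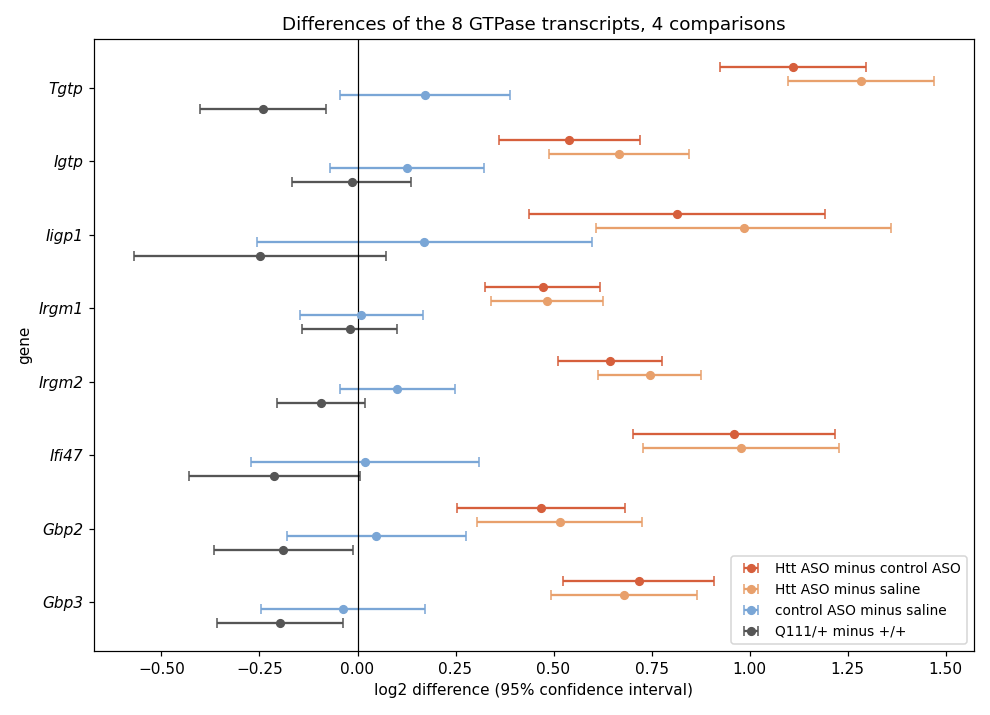
Log2 differences (horizontal axis) of the 8 GTPase transcripts (vertical axis) with 95% confidence intervals from limma after voom, for *Htt* ASO against control ASO and saline, control ASO against saline, and HttQ111/+ against Htt+/+. Intervals of the control ASO comparison all cross 0, and the 2 comparisons with *Htt* ASO, by which the genes were selected, lie to the right of 0.

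The genotype comparison asked whether the mutant allele went with other levels of these transcripts, and did not choose the genes. Over the 3 treatments *Tgtp* was lower in HttQ111/+ mice by a log2 difference of -0.24 (SE 0.079, adjusted p = 0.0142), and *Gbp3* by -0.20 (SE 0.079, adjusted p = 0.0433). These are 2 of 8 members, both lower. Of all tested genes 39.8% were called in either direction, 3182 of 17639 lower and 3842 higher. *Gbp2* (-0.19, adjusted p = 0.0842), *Ifi47* (-0.21, adjusted p = 0.116), *Iigp1* (-0.25, adjusted p = 0.221) and *Irgm2* (-0.09, adjusted p = 0.191) did not pass. *Irgm1* and *Igtp* had log2 differences of -0.02 and -0.01, with intervals of -0.14 to 0.10 and -0.17 to 0.14. With library totals in place of TMM scaling these became 0.02 for both, and the median of all genes moved by 0.04. The *Gbp3* call was lost without any of 20 of the 35 mice, among them the one with high choroid plexus markers (adjusted p = 0.0737), and both calls were lost with L number as a covariate (adjusted p = 0.0510 for *Tgtp* and 0.176 for *Gbp3*). Within the 5 L numbers that held both genotypes the mean over members ran from -0.37 to 0.27, and was above 0 in 2.

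For *Tgtp* the genotypes overlapped under each treatment. On saline it ranged from 2.33 to 3.72 CPM in Htt+/+ mice (median 3.08) and from 2.16 to 2.92 in HttQ111/+ mice (median 2.57). On control ASO the 5 Htt+/+ mice had 4.81, 3.88, 2.97, 2.73 and 2.66 CPM, and HttQ111/+ mice ranged from 2.63 to 3.30 (median 2.85). On *Htt* ASO it ranged from 5.83 to 9.67 in Htt+/+ mice (median 7.75) and from 5.20 to 6.65 in HttQ111/+ mice. *Gbp3* overlapped likewise. On saline it ranged from 4.80 to 7.94 CPM in Htt+/+ mice (median 5.71) and from 4.49 to 5.89 in HttQ111/+ mice (median 5.12). On control ASO the 5 Htt+/+ mice had 6.41, 6.40, 4.44, 5.59 and 5.94 CPM, and HttQ111/+ mice ranged from 4.22 to 6.90 (median 4.99). On *Htt* ASO it ranged from 7.74 to 13.2 in Htt+/+ mice (median 9.45) and from 7.28 to 10.1 in HttQ111/+ mice (median 8.13).

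Within treatments, 0 of 8 members were called on saline, where 17.4% of genes were, and 0 of 8 on control ASO, where 18.5% were. Without adjustment 0 of the 8 were under 0.05 in either by limma after voom, edgeR or DESeq2. On *Htt* ASO 2 of 8 were called, where 21.2% of genes were. *Tgtp* differed by -0.29 (SE 0.10, adjusted p = 0.0417) and *Ifi47* by -0.41 (SE 0.15, adjusted p = 0.0460). *Ifi47* then ranged from 1.55 to 2.25 CPM in Htt+/+ mice (median 1.84) and from 1.13 to 1.63 in HttQ111/+ mice (median 1.45), with a small overlap. Neither call held with edgeR (adjusted p = 0.0645 and 0.0921) or DESeq2 (0.0501 and 0.0579). Leaving out single mice ended the *Tgtp* call for 9 mice and the *Ifi47* call for 12.

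Other lists were set beside the members for genotype, where 39.8% of all tested genes were called in either direction. Of the 17639 genes 3182 were lower and 3842 higher in HttQ111/+ mice. Of 8 microglia markers 5 were lower in HttQ111/+ mice, and their sum was 446.3 to 530.4 CPM there against 490.1 to 568.4 CPM in Htt+/+ mice. Of 6 endothelial markers 5 were lower, with sums of 134.1 to 167.8 CPM against 149.2 to 260.7 CPM. Within treatments, 4 endothelial and 2 microglia markers were called lower on control ASO, and 0 of either on saline or *Htt* ASO. Median log2 differences on saline, control ASO and *Htt* ASO were -0.15, -0.29 and -0.14 for endothelial markers. For microglia markers they were -0.07, -0.11 and -0.09. Spiny projection neuron markers were lower for 7 of 8 and higher for *Tac1*, with sums of 3765 to 4540 CPM against 5310 to 6663 CPM. None of the defining markers of these 3 lists was at 0 in any mouse. Among type I interferon targets 6 of 28 were lower and 0 higher, and among interferon gamma targets 4 of 14 were lower and 0 higher. Both shares were smaller than that of all genes called in either direction, but not than that of all genes called lower. The part of these cell types in the *Tgtp* and *Gbp3* differences was not tested.

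The interaction asked whether genotype changed how far *Htt* ASO mice differed from control ASO mice. It called 0 of 8 members and 0% of genes by limma after voom, with 713 genes at an unadjusted p under 0.05. EdgeR and DESeq2 called 0 genes too, and in DESeq2 656 had an unadjusted p under 0.05. The largest interaction was that of *Ifi47*, at -0.48 on the log2 scale (95% interval -0.997 to 0.036). Without the mouse with high choroid plexus markers it was -0.56 (SE 0.27). In that fit 1 member and 608 of 17709 genes had an unadjusted p under 0.05 by limma after voom, and 0 genes were called. The level of *Ifi47* on control ASO was 0.808 ± 0.129 CPM (SD, n = 5) in Htt+/+ and 0.871 ± 0.239 (SD, n = 6) in HttQ111/+ mice, and on *Htt* ASO 1.88 ± 0.233 and 1.41 ± 0.215 (SD, n = 6 each). Interactions of the other 7 members ran from -0.16 (*Iigp1*, interval -0.91 to 0.59) to 0.03 (*Igtp*, interval -0.33 to 0.39).

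Members also varied together between mice of the same group. For each gene the deviation of log2 CPM from the mean of its group was taken, so that treatment and genotype differences were removed. Over 35 mice, Pearson's r of these deviations was 0.243 to 0.753 in the 28 pairs of members (median 0.554), and Spearman's rho was 0.320 to 0.735. Without the 2 mice farthest from the median of the first gene of each pair, r was 0.202 to 0.721. The highest pairs were *Iigp1* with *Gbp3* (r = 0.753) and *Igtp* with *Irgm1* (r = 0.746), and the lowest was *Igtp* with *Ifi47* (r = 0.243). *Igtp* and *Irgm2*, whose printed promoters are nearly the same, had an r of 0.588. The members of a pair are read from the same libraries and share their depth and tissue composition, and low counts of *Ifi47* add noise of their own. Averaged over members, HttQ111/+ *Htt* ASO replicate 3 lay 0.35 above its group mean, and Htt+/+ *Htt* ASO replicates 4 and 6 lay 0.27 and 0.26 below theirs. The last of these is the left hemistriatum.

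**Figure D3:**
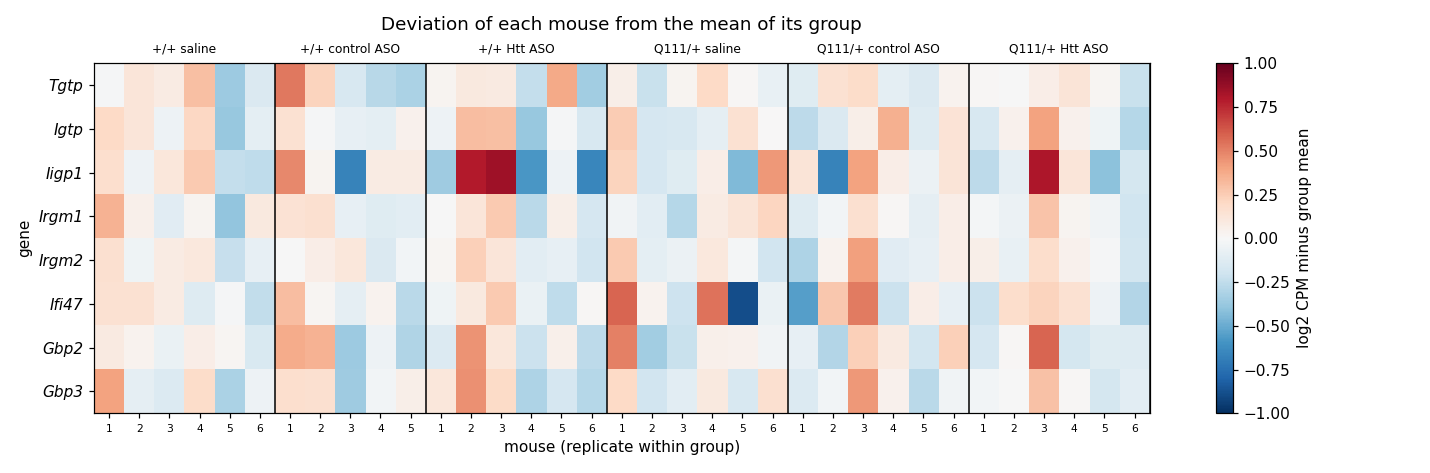
Deviation of log2 CPM from the group mean (colour, red above and blue below) for the 8 GTPase transcripts (rows) in each of 35 mice (columns, numbered within group). Columns tend to share a colour across genes, as in HttQ111/+ *Htt* ASO replicate 3, which averages 0.35 above its group, and the strongest colours are in *Iigp1* and *Ifi47*.

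By the same measure, the genes most like the mean of the members were sought among the 15082 other genes that averaged 1 CPM or more. Their median r was -0.01, and 99 in 100 were below 0.485. *Rnf213*, a giant ubiquitin ligase induced by interferon, came first with r = 0.883. Others among the 10 highest were *Gbp6* (0.841), *Oasl2* (0.838), *Ifit3* (0.836), *BC013672* (0.833), *LOC667370* (0.832), *Ifit1* (0.824), *Mpa2l* (0.816) and *Usp18* (0.789). *Ifit1*, *Ifit3* and *Oasl2* encode antiviral effectors, and *Usp18* the protease that removes ISG15. The median r was 0.623 for 22 type I interferon targets, 0.122 for 8 interferon gamma targets, 0.330 for 8 microglia markers and 0.312 for 6 endothelial markers.

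The rest of the interferon pathway was described between *Htt* ASO and control ASO, over both genotypes. The gene lists hold textbook members, but were written with earlier results of these data known, and most of their genes respond to both kinds of interferon. Of the ligands, *Ifng* had 0 counts in 31 of 35 mice and at most 1 count in any. The type I interferon genes looked for, *Ifnb1*, *Ifna1*, *Ifna2* and *Ifna4*, could be matched to no gene in the counts and were not compared. The receptor genes *Ifngr1* (log2 difference 0.08, adjusted p = 0.233), *Ifngr2* (0.04, adjusted p = 0.963), *Ifnar1* (0.02, adjusted p = 0.967) and *Ifnar2* (0.03, adjusted p = 0.970) were not called. *Stat2* differed by 0.13 (SE 0.036, adjusted p = 0.0826). *Irf9*, the DNA-binding part of the complex that binds the response element, was higher by 0.28 (SE 0.070, adjusted p = 0.0460), the only call among the 10 receptor and signalling genes tested. *Jak1*, *Jak2* and *Tyk2* differed by -0.04 to -0.01.

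Other members of the GTPase family were higher for 5 of 9 tested, with a median log2 difference of 0.38. *Gvin1*, a very large interferon-inducible GTPase, was higher by 0.87 (SE 0.077), *Gbp4* by 1.07 (SE 0.13), *Gm4951* by 1.54 (SE 0.24), *Gbp5* by 0.37 (SE 0.080) and *Mpa2l* by 0.68 (SE 0.17). *Gbp6* (0.31, SE 0.079, adjusted p = 0.0503) did not pass. *Gbp11* differed by 0.15, and *Irgq*, an IRG-like gene without the usual interferon response, by 0.02. RSEM divides reads between near-identical family members, so single GBP and IRG rows are uncertain to that extent.

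Targets known best from type I interferon were higher for 19 of 28 tested and lower for 0, with a median log2 difference of 0.70 beside 0.68 for the 8 members and -0.00 for all genes tested. *Zbp1*, a sensor of Z-form nucleic acid, was higher by 2.16 (SE 0.27). *Oas2* and *Oas1a*, synthetases that activate RNase L, were higher by 1.92 (SE 0.14) and 1.29 (SE 0.14). *Irf7*, a transcription factor that amplifies type I interferon, was higher by 1.74 (SE 0.15), and *Ifi44* by 1.69 (SE 0.21). *Ifi35* was higher by 0.44 (SE 0.064). Targets known best from interferon gamma were higher for 2 of 14 tested, *Icam1* (0.81, SE 0.11), an adhesion molecule, and *Serpina3g* (1.77, SE 0.26), a protease inhibitor with 0 counts in some mice. The median of the 14 was 0.34, and all 14 differences were above 0. The MHC class II genes *H2-Ab1* (0.60, SE 0.19, adjusted p = 0.210) and *H2-Aa* (0.63, SE 0.22, adjusted p = 0.371) were not called at mean levels of 0.498 and 0.541 CPM. *Nos2* (0.35, adjusted p = 0.372) and *Cd274* (0.24, adjusted p = 0.536) were not called either. Against saline 3 of the 14 were higher, *Icam1* (1.21, SE 0.11), *Serpina3g* (3.36, SE 0.32) and *Nos2* (0.79, SE 0.13, adjusted p = 0.000147). These 3 genes differed by 0.40, 1.60 and 0.44 between control ASO and saline, each with an adjusted p of 0.588. Against saline 22 of 28 type I targets and 5 of 9 other family members were higher, and *Irf9* was not called (0.25, adjusted p = 0.0513). *Ciita*, the regulator of MHC class II genes, and *Cxcl9*, a chemokine typical of interferon gamma, were too low to test, with 0 counts in 18 and 11 mice. The response element core was in 10 of 18 type I targets and 2 of 13 interferon gamma targets found in the promoter table. The gamma-activated site was in 4 of these 18 and 4 of these 13. Of 8 other family members found there, 6 held the core and 4 the site. The lists differ in level and precision, and the difference between them was not tested.

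**Figure D4:**
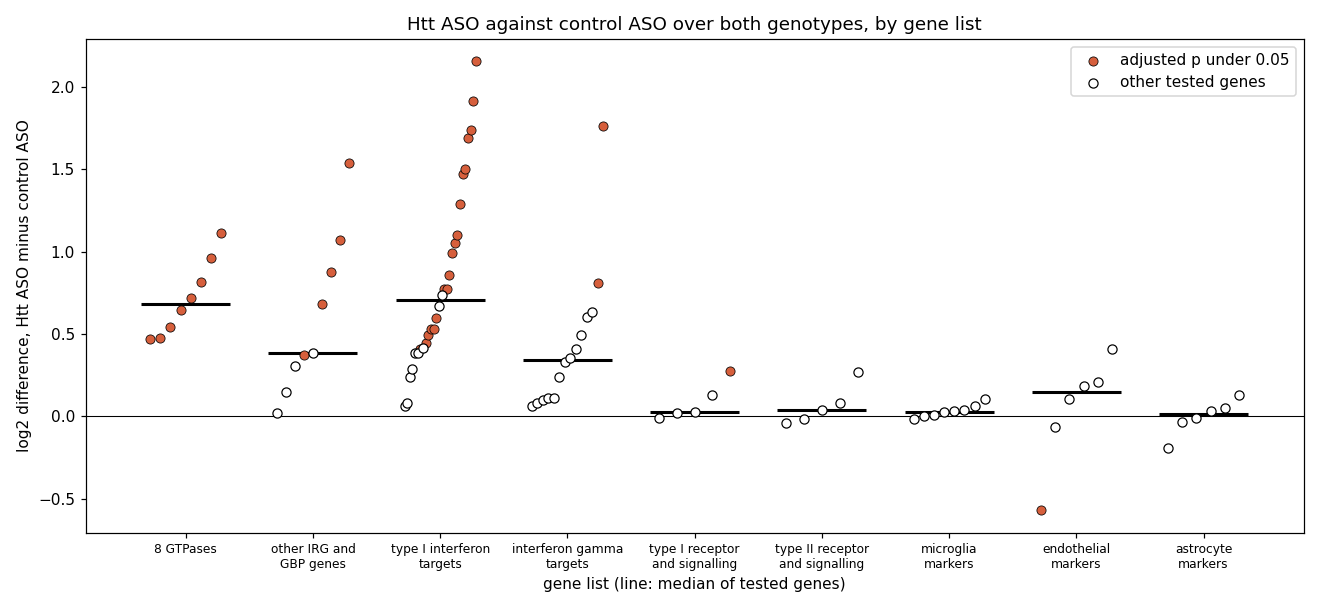
Log2 difference of *Htt* ASO from control ASO (vertical axis) for each tested gene of 9 lists (horizontal axis), with filled points at an adjusted p under 0.05 and lines at list medians. The 8 GTPases, selected on this comparison, range from 0.47 to 1.11, type I interferon targets reach 2.16 with a median of 0.70, and microglia markers stay within 0.11 of 0.

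Markers of cell types that could carry these transcripts were set beside them. Of 8 microglia markers 0 were called between *Htt* ASO and control ASO (median log2 difference 0.03), and 0 had an unadjusted p under 0.05 by limma after voom. Their sums were 469 to 556.1 CPM on *Htt* ASO, 446.3 to 568.4 on control ASO and 485 to 549.7 on saline. *Aif1* differed by 0.11 (adjusted p = 0.906) and *Cx3cr1* by 0.06 (adjusted p = 0.891). Of 6 endothelial markers *Tek*, the angiopoietin receptor, was lower by a log2 difference of -0.57 (SE 0.079, adjusted p = 1.65e-05), and 0 were higher. *Cldn5* (0.41, adjusted p = 0.0638) and *Cdh5* (0.21, adjusted p = 0.0540), which encode junction proteins, were not called. Against saline 2 of the 6 were higher, *Cdh5* (0.35, SE 0.054, adjusted p = 8.00e-05) and *Pecam1* (0.20, SE 0.053, adjusted p = 0.0451), which encodes an adhesion molecule, and *Tek* was again lower (-0.58, SE 0.077). Endothelial sums were 147.6 to 192 CPM on *Htt* ASO, 134.1 to 260.7 CPM on control ASO and 142.7 to 192.6 CPM on saline. The defining T cell markers *Cd3d*, *Cd3e* and *Cd3g* had at most 4 counts in any mouse and 0 counts in 18 to 21 of 35, and *Prf1* and *Gzmb*, of cytotoxic cells, had at most 2. Of the same list *Cd8a* had at most 11 counts and was at 0 in no mouse. *Cd4*, the only gene of that list tested, averaged 92.8 CPM and was not called between *Htt* ASO and control ASO (0.06, adjusted p = 0.943). It was lower in HttQ111/+ mice by a log2 difference of -0.54 over treatments, as were 7 of 8 spiny projection neuron markers. With the *Cd3* genes near 0 counts, *Cd4* cannot be read as a measure of T cells, and its cell source was not tested. Of 3 border macrophage and monocyte markers tested 0 were called over both genotypes, against control ASO or saline. Against saline *Mrc1* was higher by 0.28 (SE 0.081, adjusted p = 0.0786), *Cd163* differed by 0.01 and *Lyve1* by -0.14. In Htt+/+ mice alone 1 of these 3 was called higher on *Htt* ASO than on saline. Of 6 astrocyte, 4 choroid plexus and 2 blood markers tested 0 were called over both genotypes. *Hbb-b1* differed by 0.27 (SE 0.28) from control ASO and by 0.54 (SE 0.28) from saline, with blood sums of 44.2 to 143.8 CPM on *Htt* ASO, 10.6 to 241 CPM on control ASO and 23.9 to 95 CPM on saline. The part of border macrophages, endothelial cells and blood cells in the GTPase levels was not tested.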

How the data were processed

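The authors prepared TruSeq stranded mRNA libraries from hemistriatal RNA, aligned paired reads to the mouse transcriptome of build MGSCv37 (mm9) with Bowtie 0.12.9 and quantified genes with RSEM 1.1.18. The deposited table holds RSEM expected counts, which carry no scaling for depth, and 55.6% of them are whole numbers. Genes were matched by symbol or RefSeq synonym.

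Tests were run with limma 3.58.1, edgeR 4.0.16 and R 4.3.3. filterByExpr (minimum count 10, minimum total 15) kept 17639 of 22099 genes, all 8 members among them. TMM factors scaled the library sizes, and limma after voom was fitted with a mean for each of 6 groups (29 residual degrees of freedom). Benjamini-Hochberg adjustment covered all 17639 genes, with a threshold of 0.05. CPM were computed on the TMM-scaled library size, and log2 CPM a prior count of 2. The same comparisons were repeated with DESeq2 1.42.0 and edgeR's quasi-likelihood test on rounded counts, library totals, other filters, L number as a covariate, sample quality weights, and leaving out mice. The code was tested on simulated data. The 85 pairs of mice within groups differed by more than sampling noise (chi-square per gene at least 3.57), so each counted as 1 sample.

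The members and lists were chosen with earlier results of these data known. Named were all members, and from each list up to 6 genes of smallest p between *Htt* ASO and control ASO with ligands, receptors and defining markers, and the 10 genes most like the members. 1 gene that this rule names is not reported here. *Gbp11*, *Irgq*, *Tac1* and *Hbb-b1* were added after their values were seen. Counting error and biological spread are both in the residual variance. Mice are separate animals.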

Additional observations from a re-analysis of the deposited data

Results flagged for a closer look

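In HttQ111/+ mice on *Htt* ASO, replicate 3 stood apart from the other 5 mice of its group for 3 members. *Iigp1* was 4.66 CPM there and 2.87 CPM in the next mouse. *Gbp2* was 8.92 CPM, with 6.01 CPM in the next mouse, and *Gbp3* was 10.1 CPM, with 8.28 CPM in the next. The gap to the nearest mouse was 0.665, 0.794 and 0.640 of the group's range, above Dixon's critical value of 0.625 for 6 samples. Chance alone flags about 1 in 20 groups, and 3 of 48 sets of a gene and a group were flagged, all in this mouse. That share is near the chance rate. The 3 genes also vary together between mice of a group (r = 0.682 to 0.753), so their flags are not separate events. Without replicate 3 the log2 differences between *Htt* ASO and control ASO were 0.73 for *Iigp1*, 0.41 for *Gbp2* and 0.69 for *Gbp3*.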

How the results depend on the processing

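No paired analysis was possible because the labels give the mice no replicate numbers, and those used here follow the order of deposit. The L number, which groups share, was the only block fitted, as a covariate. Between *Htt* ASO and the other treatments the 8 members kept their direction and stayed within 1 SD of the spread between mice under all 43 alternatives. Counts of members called by genotype were less stable. Over treatments 1 member was called with library totals or with no filter and 0 with L number, in place of 2, and the count was 1 to 3 without single mice. On *Htt* ASO 0 were called with edgeR, DESeq2, library totals, no filter or L number, 1 without the left hemistriatum mouse, and 0 to 2 without single mice. With a mean of at least 1 CPM 1 interferon gamma target was called, since *Serpina3g* falls below it. The cause of the other changes was not tested.

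The *Gbp3* call over treatments was lost without replicate 1 or 4 of Htt+/+ saline, 1, 2, 4 or 5 of Htt+/+ control ASO, 1, 2 or 3 of Htt+/+ *Htt* ASO, 2, 3 or 5 of HttQ111/+ saline, and 1, 2, 5 or 6 of HttQ111/+ control ASO or *Htt* ASO (adjusted p up to 0.0766). *Gbp2* was called without Htt+/+ control ASO replicate 3, HttQ111/+ saline replicate 1 or HttQ111/+ *Htt* ASO replicate 3 (lowest adjusted p = 0.0218). On *Htt* ASO the *Tgtp* call was lost without Htt+/+ *Htt* ASO replicate 1, 2, 3 or 5 or HttQ111/+ *Htt* ASO replicate 1, 2, 3, 5 or 6 (up to 0.136). The *Ifi47* call was lost without replicate 4 of Htt+/+ saline, 1, 2, 3, 4 or 6 of Htt+/+ *Htt* ASO, 2 or 6 of HttQ111/+ saline, 6 of HttQ111/+ control ASO, or 1, 5 or 6 of HttQ111/+ *Htt* ASO (up to 0.106).

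Signs turned only for small log2 differences that were not called. With library totals, genotype gave 0.024 for *Igtp* and 0.019 for *Irgm1* over treatments, 0.011 for *Irgm1* on saline and 0.013 for *Igtp* on *Htt* ASO, and the *Irgm2* interaction was 0.0035. With L number, genotype gave 0.0080 for *Igtp* and 0.0076 for *Irgm1* over treatments and 0.023 for *Irgm1* on saline, control ASO minus saline gave -0.0029 for *Irgm1* and -0.037 for *Ifi47*, and the *Igtp* interaction was -0.0090. Sample quality weights gave -0.00087 for *Irgm1* between control ASO and saline and -0.019 for the *Igtp* interaction, and edgeR gave -0.0017 for *Irgm1* between control ASO and saline. Without single mice, genotype over treatments ran from -0.046 to 0.0073 for *Igtp* and from -0.051 to 0.0026 for *Irgm1*. On saline it ran from -0.0082 to 0.11 for *Igtp* and from -0.11 to 0.040 for *Irgm1*. On control ASO it ran from -0.12 to 0.027 for *Irgm2*, from -0.039 to 0.19 for *Ifi47* and from -0.17 to 0.020 for *Gbp2*, and on *Htt* ASO from -0.13 to 0.025 for *Igtp*. Control ASO minus saline ran from -0.029 to 0.044 for *Irgm1*, from -0.068 to 0.078 for *Ifi47*, from -0.00019 to 0.099 for *Gbp2* and from -0.083 to 0.0083 for *Gbp3*. Interactions ran from -0.051 to 0.099 for *Igtp*, from -0.33 to 0.012 for *Iigp1*, from -0.090 to 0.059 for *Irgm2* and from -0.12 to 0.042 for *Gbp3*.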
